A study of Homo sapiens with 3 samples.

Results

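STC2 and 9 genes of the ATF4 amino acid stress response (ATF4, DDIT3, TRIB3, ASNS, CHAC1, SESN2, PSAT1, PHGDH and VLDLR) were followed through single-cell RNA profiles of breast cancer spheroids, as 10 of the 22497 genes listed by symbol. STC2 was chosen by its measured levels, which were low in cocultured sensitive cells and in resistant cells, so those differences of STC2 are given as a description only. The other 9 genes were named for their known place in the response, with earlier results of these data known, and the question was whether they moved with STC2.

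CAMA-1, an established estrogen receptor-positive luminal breast cancer cell line, was grown as spheroids from 2000 plated cells in 3 compositions: 100% sensitive cells, 50% sensitive with 50% resistant cells, and 100% resistant cells. Sensitive cells carried a Venus reporter and the ribociclib-resistant derivative line carried mCherry, so lineage and reporter cannot be told apart, and each lineage was 1 cell line. All spheroids received DMSO and 1 µM ribociclib, an inhibitor of the cell cycle kinases CDK4 and CDK6, and were harvested on day 11, with no untreated library among those analysed here. Each composition was 1 library, which gave 4 populations: 3329 sensitive cells from monoculture, 2059 sensitive cells from coculture, 6292 resistant cells from coculture and 7557 resistant cells from monoculture.

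The ATF4 pathway belongs to the integrated stress response. Kinases that sense amino acid shortage, unfolded protein in the endoplasmic reticulum, heme deficiency or viral RNA phosphorylate the initiation factor eIF2alpha, which slows general protein synthesis while the ATF4 mRNA is translated more, and ATF4 then switches on genes for amino acid synthesis, amino acid import and stress adaptation. Because ATF4 is set largely at translation, its mRNA is an incomplete measure of its activity, and its target genes are commonly read beside it. STC2 encodes stanniocalcin-2, a secreted glycoprotein that blocks the protease PAPP-A, which cleaves insulin-like growth factor binding proteins, and its gene is known to respond to ATF4, to estrogen and to low oxygen.

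The 10 genes lie apart in the genome (GRCh37 coordinates, GENCODE annotation). STC2 is at chr5:172741726-172755450 on the minus strand and ATF4 at chr22:39915700-39918688 on the plus strand. ASNS is at chr7:97480989-97501854 on the minus strand and CHAC1 at chr15:41245160-41248710 on the plus strand. All 10 genes had a RefSeq promoter window (250 bases before to 50 after the annotated start, build GRCh38.p14). These windows were searched on both strands for TGATGNAA, letters of the composite element that ATF4 binds with a C/EBP partner. Windows of 2 of the 10 genes, ASNS and CHAC1, held it, against 4.46% of the 27305 genes with a window. The 3 upstream stretches below show the matches, in capitals, beside the STC2 stretch just before its start, which held none; each is printed 5′ to 3′ along the gene's own strand.
ASNS, chr7:97872443-97872502, minus strand: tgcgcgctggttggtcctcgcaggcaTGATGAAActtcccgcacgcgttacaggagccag
CHAC1, chr15:40953236-40953295, plus strand: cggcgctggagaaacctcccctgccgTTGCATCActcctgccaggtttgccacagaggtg
STC2, chr5:173328415-173328534, minus strand: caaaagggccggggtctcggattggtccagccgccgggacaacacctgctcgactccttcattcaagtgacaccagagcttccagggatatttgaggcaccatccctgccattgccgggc
The match in CHAC1 reads on the opposite strand. A match is a description of letters, and a window with no match says nothing of elements elsewhere in a gene.

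Levels are given as CPM, the gene's molecules (unique molecular identifiers, UMIs) per 1000000 UMIs summed over the cells of a population. Each value carries a 95% exact Poisson interval, which covers counting error only. With 1 library per composition there was no replicate check and no test, and p-values are left out. A difference is a log2 ratio of CPM with its exact counting interval, and 1.5-fold is used as a fixed size to count genes. Summed UMIs were 96247731 and 70896822 in sensitive cells from monoculture and coculture, and 199632131 and 270891547 in resistant cells from coculture and monoculture. Luminal markers summed to 7659 to 9605 CPM in the 4 populations, while markers of fibroblasts summed to at most 3.62 CPM, of immune cells to at most 1.16 CPM and of endothelial cells to at most 0.301 CPM. Of the 3 basal markers, KRT14 was listed at 3.58 CPM in sensitive monoculture and at 0.221 to 0.711 CPM elsewhere, and KRT5 had at most 1 UMI in any population; the part of KRT14-positive cells in the STC2 levels was not tested. The 3 pairs of libraries shared 8, 7 and 17 annotated cell barcodes.

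STC2 stood at 163 CPM (161 to 166; 15714 UMIs) in sensitive cells grown alone. In sensitive cells from coculture it was 44.1 CPM (42.6 to 45.7), in resistant cells from coculture 32.5 CPM (31.7 to 33.3) and in resistant cells from monoculture 19.9 CPM (19.4 to 20.5). None of the 4 counting intervals overlapped, and the order ran from sensitive monoculture down to resistant monoculture. The log2 ratio of coculture over monoculture was -1.89 (-1.94 to -1.83) in sensitive cells, a level 3.70-fold lower, and only 56 of the 12326 genes with at least 50 UMIs in the pair of populations had a lower ratio. Between the monocultures the log2 ratio of resistant over sensitive cells was -3.03 (-3.08 to -2.99), with 122 of 12968 genes lower. Within the coculture library, where both lineages shared handling and sequencing, resistant cells differed from sensitive cells by -0.44 (-0.50 to -0.38). Among cells under 15% mitochondrial this direction turned, with 30.4 CPM in resistant and 27.3 CPM in sensitive cells, a ratio of 0.16 (0.04 to 0.28). In resistant cells the coculture difference had the opposite sign, 0.70 (0.65 to 0.76), a level 1.63-fold higher.

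**Figure D1:**
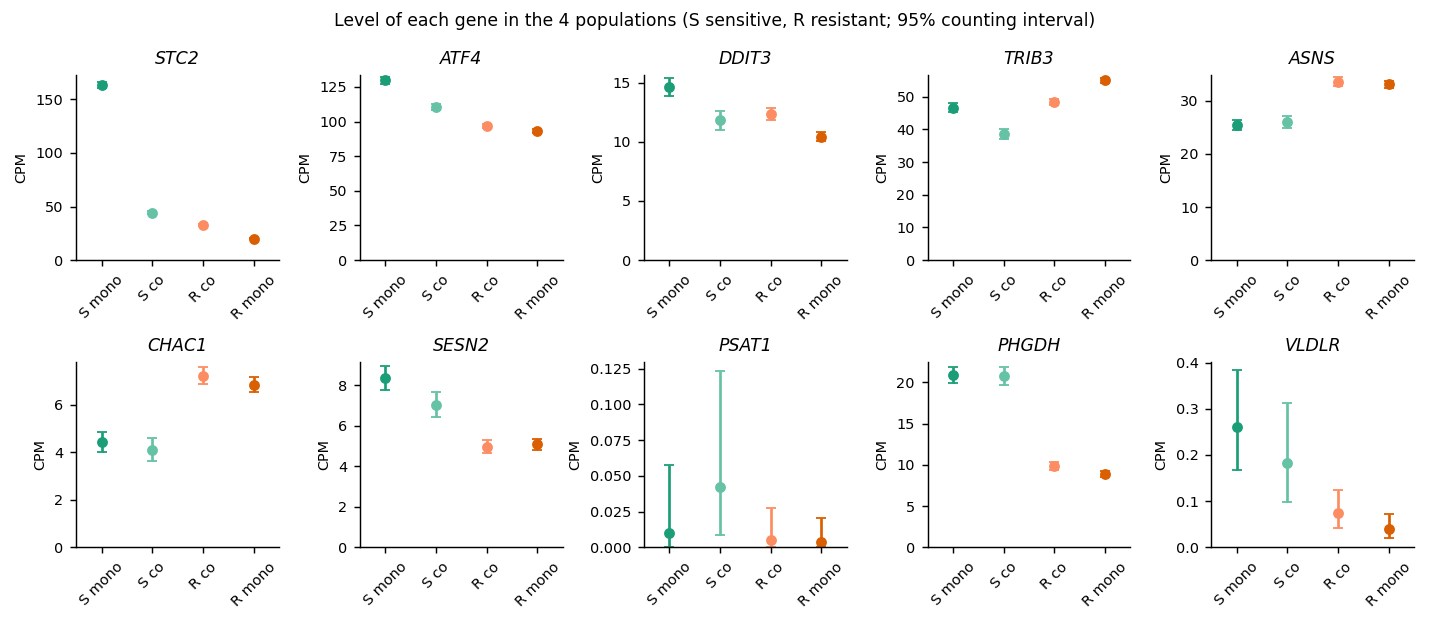
CPM (vertical axes, each from 0) of the 10 genes in the 4 populations, 1 point per population with its 95% counting interval. STC2 drops from 163 CPM to 44.1 CPM between the sensitive populations, while ATF4 goes from 130 to 110 CPM, ASNS is 25.5 and 26.0 CPM, and PSAT1 is at most 0.0423 CPM.

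ATF4, the transcription factor of the response, was 130 CPM (127 to 132) in sensitive cells alone, 110 CPM (108 to 113) in cocultured sensitive cells, 96.8 CPM (95.4 to 98.2) in cocultured resistant cells and 93.1 CPM (92.0 to 94.3) in resistant cells alone. With all phases pooled this was the same order as STC2, in a much narrower range. In S the ATF4 levels were 100.1, 107, 102 and 94.9 CPM, so sensitive cells alone were not the highest. The ATF4 log2 ratio of coculture over monoculture in sensitive cells was -0.23 (-0.27 to -0.19). However, it was 0.10 (-0.03 to 0.23) in S and 0.11 (0.0043 to 0.22) in cluster 3 of the deposited clustering. The ratio of resistant over sensitive monoculture was -0.48 (-0.51 to -0.45) with all phases pooled. By phase it was -0.60 in G1, -0.08 (-0.19 to 0.04) in S and -0.21 (-0.32 to -0.10) in G2M. Processed pseudogenes of ATF4, and also of ASNS and PSAT1, exist, and reads shared with them cannot be told apart here.

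DDIT3, which encodes the transcription factor CHOP induced by prolonged stress, was 14.6 CPM in sensitive cells alone, 11.8 CPM with resistant partners, 12.4 CPM in cocultured resistant cells and 10.4 CPM in resistant cells alone. Its coculture ratio was -0.31 (-0.44 to -0.19) in sensitive cells and 0.25 (0.17 to 0.32) in resistant cells, opposite in sign as for STC2. TRIB3, a pseudokinase that ATF4 and CHOP induce and that feeds back on them, was 46.6, 38.6, 48.3 and 55.0 CPM in the same order of populations. The highest TRIB3 level was therefore in resistant monoculture, where STC2 was lowest.

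Enzymes of the response did not share 1 pattern. ASNS, asparagine synthetase and a standard readout of amino acid stress, was 25.5 CPM in sensitive cells alone and 26.0 CPM in coculture, with a ratio of 0.03 (-0.06 to 0.12). It was higher in resistant cells, at 33.7 CPM in coculture and 33.1 CPM in monoculture. CHAC1, a glutathione-degrading enzyme induced through ATF4, was 4.43 and 4.10 CPM in sensitive cells from monoculture and coculture against 7.21 and 6.84 CPM in resistant cells from coculture and monoculture. Its resistant over sensitive ratio was 0.63 (0.48 to 0.78) between monocultures and 0.81 (0.63 to 1.00) within coculture, the reverse of STC2. PHGDH, the first enzyme of serine synthesis, was 20.9 and 20.7 CPM in sensitive cells alone and in coculture, and 9.84 and 8.93 CPM in resistant cells in coculture and alone. It separated the lineages by -1.22 (-1.31 to -1.14) between monocultures and differed between the sensitive populations by -0.01 (-0.11 to 0.09) with all phases pooled, but by -0.45 in G1, -0.70 in S and -0.96 in G2M. PSAT1, the next enzyme of that pathway, had 1, 3, 1 and 1 UMIs in the 4 populations and was near the detection limit.

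SESN2, a leucine sensor that restrains mTORC1, was 8.33, 7.01, 4.96 and 5.08 CPM in the same order of populations. Its ratio was -0.25 (-0.41 to -0.09) for coculture in sensitive cells and -0.71 (-0.84 to -0.59) between monocultures. VLDLR, a lipoprotein receptor, had 25, 13, 15 and 11 UMIs, or 0.260, 0.183, 0.0751 and 0.0406 CPM. VLDLR followed the order of STC2, but its coculture ratio in sensitive cells, -0.50, had an interval from -1.59 to 0.52 that included 0.

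Of the 9 genes other than STC2, 7 had at least 50 UMIs in each pair of populations, with PSAT1 and VLDLR below that limit. For coculture over monoculture in sensitive cells, none of the 7 was 1.5-fold lower or higher, where 9.69% of all 12326 genes were lower and 8.6% were higher by that size, and the median ratio of the 7 was -0.23 against -0.06 over all genes. In cells under 15% mitochondrial, DDIT3 was past that size (-0.63), and so was PHGDH within S (-0.70) and within G2M (-0.96). Between monocultures, SESN2 and PHGDH were at least 1.5-fold lower in resistant cells and CHAC1 at least 1.5-fold higher, against 18.5% and 11.6% of 12968 genes. Among G1 cells alone ATF4 was also past that size (-0.60) and CHAC1 was not (0.47). ATF4 was -0.08 (-0.19 to 0.04) in S and -0.21 (-0.32 to -0.10) in G2M. In S and G2M CHAC1 was 1.51 and 1.06, on 18 and 21 UMIs in sensitive cells. SESN2 was -0.66 in G1, -0.19 (-0.70 to 0.36) in S and -0.57 in G2M, so it passed in G1 alone. CHAC1 also fell short of 1.5-fold without the 10% of cells with the most UMIs (0.57) and with mitochondrial genes left out of totals (0.55). In cells under 15% mitochondrial, SESN2 did not pass (-0.46) and DDIT3 did (-0.70). In the bands of 15 to 20, 20 to 25 and 25 to 30%, DDIT3 was -0.79, -0.07 and -0.67. The median of the 7 was -0.48, and that over all genes was -0.09. Within coculture, PHGDH was lower and CHAC1 higher in resistant cells by that size, against 7.57% and 5.65% of 12772 genes, with a median of 0.07 against 0.0013 over all genes. Among G1 cells alone CHAC1 was 0.42 there and did not pass, but it was 1.60 (1.18 to 2.04) in S and 0.88 (0.47 to 1.32) in G2M. For resistant cells in coculture over monoculture none of the 7 passed, against 0.692% lower and 3.82% higher of 13155 genes. The median of the 7 was 0.06 against 0.04 over all genes. Each of these medians was the middle gene's own ratio, that of ATF4, or of DDIT3 within coculture. STC2 itself was past 1.5-fold in 3 of the 4 comparisons while its difference within coculture was smaller than 1.5-fold. It was chosen for low levels in cocultured sensitive cells and in resistant cells, so this count is a description. The 4 comparisons reuse populations, so their values are set side by side and are not independent of each other.

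**Figure D2:**
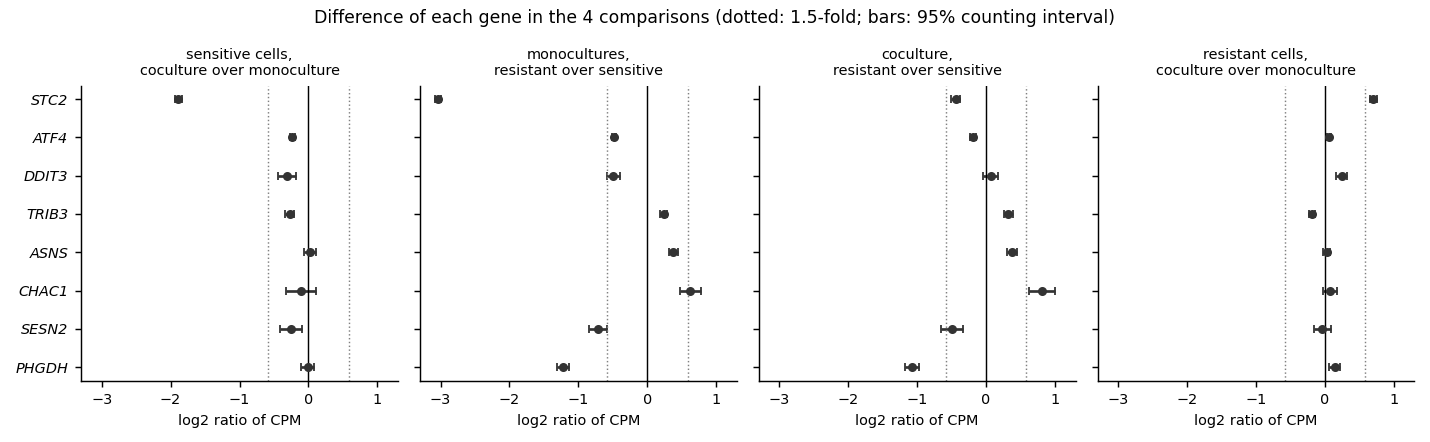
Log2 ratio of CPM (horizontal axis) of the 8 genes with enough UMIs in the 4 comparisons, with 95% counting intervals and dotted lines at 1.5-fold. STC2 lies at -1.89 and -3.03 in the 2 left panels, where the other genes range from -0.31 to 0.03 and from -1.22 to 0.63.

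By cell cycle phase, as annotated in the deposited metadata, sensitive monoculture had 89.0% of cells in G1, and the other 3 populations had 49.7% to 55.3%. STC2 was lower in G2M than in G1 in all 4 populations: 111 against 170 CPM in sensitive cells alone and 31.4 against 52.7 CPM in coculture, and in resistant cells 24.7 against 36.5 CPM in coculture and 16.0 against 22.3 CPM alone. The coculture ratio of STC2 in sensitive cells was -1.69 in G1, -1.78 in S and -1.82 in G2M, so it was of similar size in each phase. The monoculture ratio between lineages was likewise -2.93 in G1, -2.78 in S and -2.79 in G2M. In resistant cells coculture was higher by 0.71, 0.79 and 0.62 in the 3 phases.

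ATF4 did not share the phase pattern of STC2 in resistant cells, where it was 88.0 CPM in G1 and 102 CPM in G2M of the monoculture. PHGDH ran opposite to STC2 over the cycle. In sensitive monoculture it was 15.1 CPM in G1, 49.6 CPM in S and 61.8 CPM in G2M, and in resistant monoculture 5.22, 10.4 and 14.9 CPM. The near equality of PHGDH between the sensitive populations held only for all phases pooled. Within each phase it was lower in coculture, with intervals from -0.61 to -0.28 in G1, from -0.91 to -0.50 in S and from -1.15 to -0.77 in G2M. DDIT3 was lowest in S in all 4 populations, at 8.55 to 10.2 CPM.

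The deposited clusters, built by the authors on the 2000 most variable genes, may have used STC2 or other members, so levels by cluster are a description. Sensitive monoculture was spread over 5 clusters of at least 100 cells. Cluster 4, with 58.4% of these cells, had the highest STC2, 204 CPM (200 to 207), with ATF4 at 122 CPM. Cluster 8, with 20.5% of the cells, had less STC2, 120 CPM (114 to 126), and the highest ATF4, 178 CPM (172 to 185). Cluster 8 over cluster 4 gave a log2 ratio of -0.76 (-0.84 to -0.69) for STC2, against 0.55 (0.49 to 0.62) for ATF4, 1.42 (1.24 to 1.59) for DDIT3, 0.53 (0.43 to 0.64) for TRIB3, 0.92 (0.57 to 1.26) for CHAC1, 0.39 (0.12 to 0.66) for SESN2 and 0.38 (0.23 to 0.54) for ASNS. PHGDH differed the other way, by -1.45 (-1.78 to -1.14). Of the members measured there, STC2 and PHGDH were lower and the other 6 higher in cluster 8. Its cells had a median of 21423 UMIs against 29523 in cluster 4 and similar mitochondrial shares, 21.3% in each, and the part of depth was not tested.

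Of 53 other genes in the 7 lists of the pathway described below, 50 had at least 50 UMIs in clusters 8 and 4. Of these, 11 were at least 1.5-fold higher in cluster 8 and none was lower by that size, against 9.47% higher and 7.68% lower of 11449 genes. This pair of clusters was compared after seeing the data. The clusters were formed on expression that may include these genes, so the counts are a description. Handling stress genes are not among the 7 lists, and their part was not tested. The median of the 50 was 0.21, against 0.07 over all genes, with 36 above 0 and 14 below. GDF15, a secreted stress cytokine, had by far the largest ratio of the 50, 5.60 (5.35 to 5.87), at 113 CPM in cluster 8 and 2.33 CPM in cluster 4. SLC7A11, the cystine importer, had a ratio of 1.54, PPP1R15A, which encodes the stress-induced phosphatase subunit GADD34, 1.23, and ATF3 1.01, while the transcription factor gene ATF5 (-0.41) and PYCR1 (-0.27), an enzyme of proline synthesis, were lower. These 6 were picked after their values were seen. Cluster 12, with 4.69% of sensitive monoculture cells, had STC2 at 23.6 CPM (19.0 to 29.0) and ATF4 at 151 CPM. Its log2 ratio over cluster 4 was -3.11 (-3.42 to -2.81) for STC2 and 0.32 (0.19 to 0.44) for ATF4. DDIT3 (0.84) and TRIB3 (0.40) were also higher there, and ASNS was lower, at -0.47 (-0.85 to -0.12), with intervals that included 0 for CHAC1 (0.65), SESN2 (-0.05) and PHGDH (-0.22).

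In coculture the cluster makeup of sensitive cells was different: 52.8% lay in cluster 3 and 29.97% in cluster 7, and 4.08% (84 cells) in cluster 4. Those 84 cells had STC2 at 183 CPM (166 to 200), near the 204 CPM of cluster 4 in monoculture, with a ratio of -0.16 (-0.30 to -0.02). Within cluster 3 STC2 was 41.4 CPM in coculture and 96.7 CPM in monoculture, a ratio of -1.23 (-1.35 to -1.10), and within cluster 7 it was 32.9 and 98.9 CPM, a ratio of -1.59 (-1.73 to -1.45). In clusters 3 and 7 PHGDH was also lower in coculture, by ratios of -1.19 (-1.42 to -0.96) and -0.86 (-1.01 to -0.70). ATF4 had ratios of 0.11 and -0.0029, TRIB3 0.10 and -0.17, DDIT3 -0.09 and -0.29, ASNS -0.19 and 0.04, CHAC1 -0.01 and 0.48, and SESN2 -0.42 (-0.79 to -0.04) and 0.20. Within these clusters STC2 and PHGDH were therefore past 1.5-fold lower in coculture, and the other 6 members were within 1.5-fold. The share of all genes past that size was not counted within these clusters, so this is a description. In cluster 4 neither STC2 nor PHGDH was past that size, and PHGDH was 0.18 (-0.28 to 0.60).

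Among resistant cells, cluster 6 had the highest STC2 of the clusters with at least 100 cells, at 53.4 CPM in coculture and 28.7 CPM in monoculture, with ATF4 at 88.9 and 81.9 CPM. STC2 was higher in coculture in all 6 resistant clusters compared, with ratios from 0.50 in cluster 5 to 0.94 in cluster 10. Cluster 13 held 55 resistant cells of coculture and 51 of monoculture and had the highest DDIT3, 52.4 CPM (42.1 to 64.4) and 31.5 CPM (24.1 to 40.5), with TRIB3 at 75.9 and 62.0 CPM. STC2 in that cluster was 70.0 CPM (58.0 to 83.8) in coculture and 15.5 CPM (10.5 to 22.1; 30 UMIs) in monoculture. The monoculture interval includes the level of all resistant cells grown alone. High DDIT3 was thus found with raised STC2 in coculture and without it in monoculture. Cluster 13 held fewer than 100 cells in each population, and clusters of that size were added after seeing the data.

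**Figure D3:**
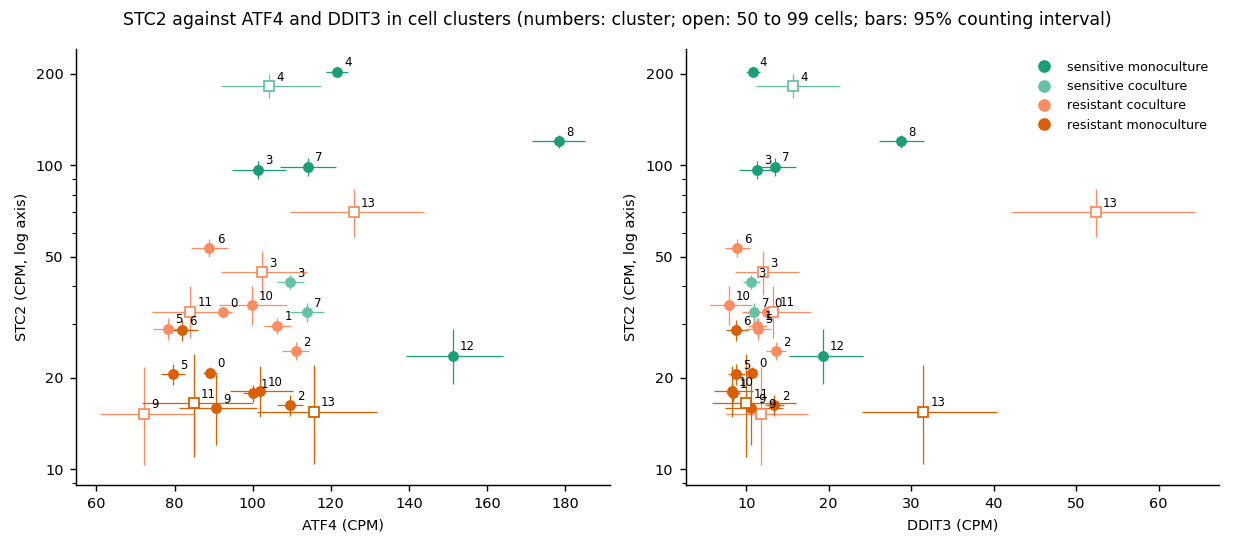
STC2 (CPM, log axis) against ATF4 (left, CPM) and DDIT3 (right, CPM) in clusters of each population, with 95% counting intervals; filled points hold at least 100 cells and open points 50 to 99. Cluster 8 and cluster 12 of sensitive monoculture have the highest ATF4, 178 and 151 CPM, and STC2 of 120 and 23.6 CPM, while cluster 4 has the highest STC2, 204 CPM.

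STC2 levels were also read by the mitochondrial share of a cell's UMIs. The median share was 20.9% in sensitive cells alone, 17.3% in those of coculture, and 15.2% and 15.4% in resistant cells in coculture and alone. In sensitive monoculture STC2 was 84.3 CPM (79.7 to 89.0) in the 461 cells under 15% and 160, 175 and 210 CPM in cells of 15 to 20, 20 to 25 and 25 to 30%. The cocultured sensitive cells gave 4 values of 27.3, 35.9, 59.2 and 93.6 CPM in the same bands, the cocultured resistant cells 30.4, 30.8, 39.8 and 46.1 CPM, and resistant cells alone 19.4, 18.3, 23.1 and 28.0 CPM. In all 4 populations STC2 was highest at 25 to 30%. ATF4 was flat over the bands by comparison, at 120 to 136 CPM in sensitive cells alone and 107 to 113 CPM in those of coculture. Within the bands the STC2 coculture ratio in sensitive cells was -1.63, -2.16, -1.57 and -1.16, lower by more than 1.5-fold in each band. Between monocultures it was -2.12, -3.13, -2.93 and -2.90. The difference within coculture depended on the band, from 0.16 (0.04 to 0.28) under 15% through -0.22 and -0.57 to -1.02 at 25 to 30%. The level of STC2 in resistant against sensitive cells of the coculture therefore had no fixed direction over these bands.

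**Figure D4:**
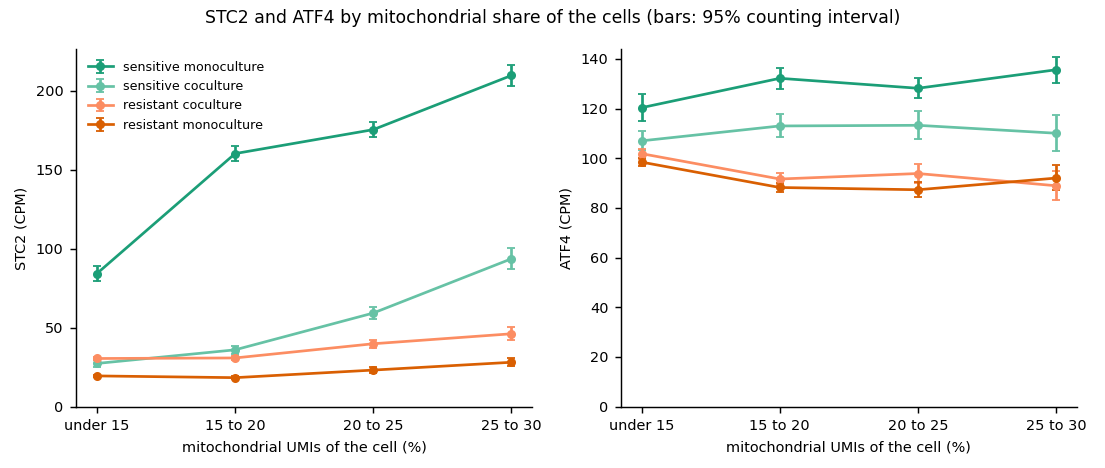
CPM of STC2 (left) and ATF4 (right) in 4 bands of the mitochondrial share of a cell's UMIs (horizontal axis, %), 1 line per population, with 95% counting intervals. STC2 goes from 84.3 to 210 CPM over the bands in sensitive monoculture, and ATF4 stays between 120 and 136 CPM.

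RNA from lysed resistant cells can reach droplets that hold sensitive cells of the same library. Among the 1263 barcodes of the coculture library with at least 2 Venus UMIs that passed the filters on genes, UMIs and mitochondrial percent, 136 carried mCherry UMIs, 186 in all, which corresponds to 7.57% resistant-cell RNA at the mCherry level of resistant cells in monoculture and to 4.88% at that of the annotated resistant cells in coculture. These 136 barcodes lie outside the 2059 annotated sensitive cells of the coculture, which held 0 mCherry UMIs. The annotated resistant cells of the coculture likewise held 0 Venus UMIs. Barcodes with both reporters were thus absent from the annotation, and these values of 0 do not measure purity. Whether the 136 barcodes were doublets of both lineages was not tested. With the larger share subtracted, the STC2 ratio of coculture over monoculture in sensitive cells was -1.86, against -1.89 without it.

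Across 12 profiles (4 populations in 3 phases), the log2 levels of STC2 and ATF4 had a Pearson r of 0.68, with 16.2% of the 4684 genes ranked above ATF4. The r with STC2 was 0.65 for SESN2, 0.53 for PHGDH and 0.31 for DDIT3, and it was negative for TRIB3 (-0.35), CHAC1 (-0.61) and ASNS (-0.68). VLDLR had 0.81, but on 0 to 18 UMIs in a profile, and among G1 cells its coculture ratio in sensitive cells was 0.46 (-0.77 to 1.62). The average levels of VLDLR, SESN2, DDIT3 and CHAC1 were below the 20 CPM asked of ranked genes. These profiles share 3 libraries, and the contrast that chose STC2 runs through all of them, so r is a description. Over 20 profiles by cluster, where VLDLR had 0 to 15 UMIs and PHGDH also averaged under 20 CPM, r was 0.85 for VLDLR, 0.70 for SESN2, 0.44 for ATF4, 0.33 for DDIT3 and 0.28 for PHGDH, and -0.35, -0.39 and -0.42 for ASNS, CHAC1 and TRIB3. The genes most like STC2 over the 12 profiles were ID3 (0.98), an inhibitor of basic helix-loop-helix transcription factors, KIAA0040 (0.98), ATP6V0E1 (0.97), a subunit of the proton pump of acidic organelles, FKBP1A (0.97), RBMS1 (0.97), GSTM4 (0.97), UBL3 (0.97) and NCSTN (0.96). ID3 was 938 and 388 CPM in sensitive cells alone and cocultured, and 329 and 275 CPM in resistant cells cocultured and alone. The least like were TMEM9, HCFC1R1, CINP and DLL3, with r from -0.96 to -0.95. Over the 20 cluster profiles the most like were KIAA0040 (0.93), MGST1 (0.90), COMMD6 (0.89), LXN (0.89), PLK2 (0.88), BASP1 (0.88), STMP1 (0.88) and the mitochondrial gene MT-ND5 (0.87), with KIAA0040 common to both rankings, and the least like were TMEM141, NTHL1, MRPL2 and GAMT, with r from -0.90 to -0.86.

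Within a population, single cells in G1 were thinned to 10000 UMIs each. STC2 was more dispersed in these cells than a Poisson count, with a variance over mean of 3.77 and 2.64 in sensitive cells alone and cocultured and 2.22 and 2.15 in resistant cells cocultured and alone. In sensitive monoculture its mean was 1.72 UMIs per thinned cell, and the most in a cell was 22. PSAT1 had no UMI in these thinned cells. The r of STC2 with the other 8 genes ran from -0.03 to 0.07 over the 4 populations. With ATF4 it was 0.07 in sensitive cells alone and -0.0071 in those of coculture. Pairs among the 8 genes went down to -0.05 and reached 0.13, 0.10, 0.13 and 0.15 in the 4 populations, and the counts behind these values were sparse. The median r of these pairs was 0.03, 0.02, 0.04 and 0.05, against -0.01, -0.01, 0.02 and 0.02 for pairs with STC2.

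The genes around the 10 members were read from lists of the pathway, against the 9.69% lower and 8.6% higher of all genes for coculture in sensitive cells. Of 7 genes for eIF2alpha, its kinases and its phosphatase subunits, 1 was 1.5-fold lower in cocultured sensitive cells, PPP1R15B, at 16.1 CPM against 25.2 CPM, and PPP1R15A (-0.43) and the endoplasmic reticulum kinase gene EIF2AK3 (-0.35) had the next largest ratios. A count of 1 in 7 is near the share over all genes. Among 6 transcription factors that pair with ATF4 or act after it, 2 were lower by that size, JDP2 (35.7 to 20.6 CPM) and CEBPB (34.4 to 21.1 CPM), none was higher, and the median was -0.47 against -0.06 over all genes. NUPR1, a stress-induced chromatin protein of this list, was 442 CPM in sensitive cells alone and 306 CPM cocultured, then 205 and 197 CPM in resistant cells cocultured and alone, the order of STC2. Between monocultures 3 of these 6 were lower by that size, where 18.5% of all genes were, and the median was -0.75 against -0.09.

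Genes for handling amino acids were mixed. Of 12 aminoacyl-tRNA synthetases, which load amino acids onto tRNA, none passed 1.5-fold in any of the 4 comparisons, with a median of 0.12 for coculture in sensitive cells and the largest ratios in SARS (0.40), GARS (0.32) and NARS (0.30). Of 10 amino acid transporters, SLC1A5, a glutamine importer, was higher (50.7 to 84.3 CPM) and SLC36A1 lower (5.17 to 3.12 CPM) in cocultured sensitive cells, with SLC38A1 at 198 and 141 CPM. These counts of 1 in 10 each way are near the shares over all genes (8.6% and 9.69%). Between monocultures 4 of the 10 were lower and 1 higher by that size, against 18.5% and 11.6% of all genes, with a median of -0.33 against -0.09. Of 5 serine and one-carbon enzymes with enough UMIs, MTHFD1L, a mitochondrial folate enzyme, was higher, at 5.90 against 2.72 CPM, while SHMT1 and MTHFD2 had ratios of -0.53 and 0.31. None of 6 other amino acid and redox enzymes passed in sensitive cells, where GPT2 (0.29), PYCR1 (0.26) and PCK2 (0.20) had the largest ratios, and 2 were at least 1.5-fold higher in resistant than in sensitive monoculture, where 11.6% of all genes were. Among 4 mTORC1 and secreted stress targets none passed, and GDF15 was 19.7 CPM alone and 13.5 CPM in coculture, with DDIT4 at 0.41 and VEGFA at -0.27 on the log2 scale. Of the 1900 GDF15 UMIs in sensitive cells alone, 1703 came from cluster 8.

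STC2 neighbors and lists of other responses were read in the same way, and some of these genes may also respond to ATF4. STC1, the other stanniocalcin, was 6.10 CPM in sensitive cells alone and 10.0 CPM cocultured, a ratio of 0.72, which ran against STC2. In resistant cells it was 9.73 CPM alone and 15.1 CPM cocultured, a ratio of 0.64, with the sign of STC2 there. Its resistant over sensitive ratios, 0.67 between monocultures and 0.60 within coculture, were opposite in sign to those of STC2. IGFBP4, the binding protein that PAPP-A cleaves, was 64.3 and 82.3 CPM, and PAPPA, which encodes PAPP-A itself, was 0.343 and 0.353 CPM. Of 8 estrogen-induced genes, 3 were at least 1.5-fold higher in cocultured sensitive cells and none lower, against 8.6% and 9.69% of all genes: TFF3 (93.3 to 377 CPM), PGR (14.6 to 39.5 CPM) and TFF1 (1873 to 4566 CPM). Of 7 hypoxia genes with enough UMIs, 4 were lower by that size (9.69% of all genes) and none higher, with a median of -0.75. ANKRD37 was 155 CPM in sensitive cells alone and 29.4 CPM cocultured, against 36.4 and 28.8 CPM in resistant cells cocultured and alone. NDRG1 was 27.2 CPM in sensitive monoculture and 7.91 to 9.10 CPM elsewhere, and ADM was 2.84 CPM and 0.498 to 1.04 CPM. Between monocultures the median of the hypoxia list was -1.78, with 4 lower and 1 higher, against 18.5% and 11.6% of all genes. Of 9 endoplasmic reticulum chaperones, HERPUD1 was lower in cocultured sensitive cells (216 to 98.7 CPM), DNAJB9 had a ratio of -0.53 and HSP90B1 of 0.30, and the median was 0.04; this 1 of 9 is near the 9.69% of all genes. None of 7 handling stress genes passed 1.5-fold there, with DNAJB1 at 0.45, HSPA1A at -0.42 and EGR1 at 0.31.

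**Figure D5:**
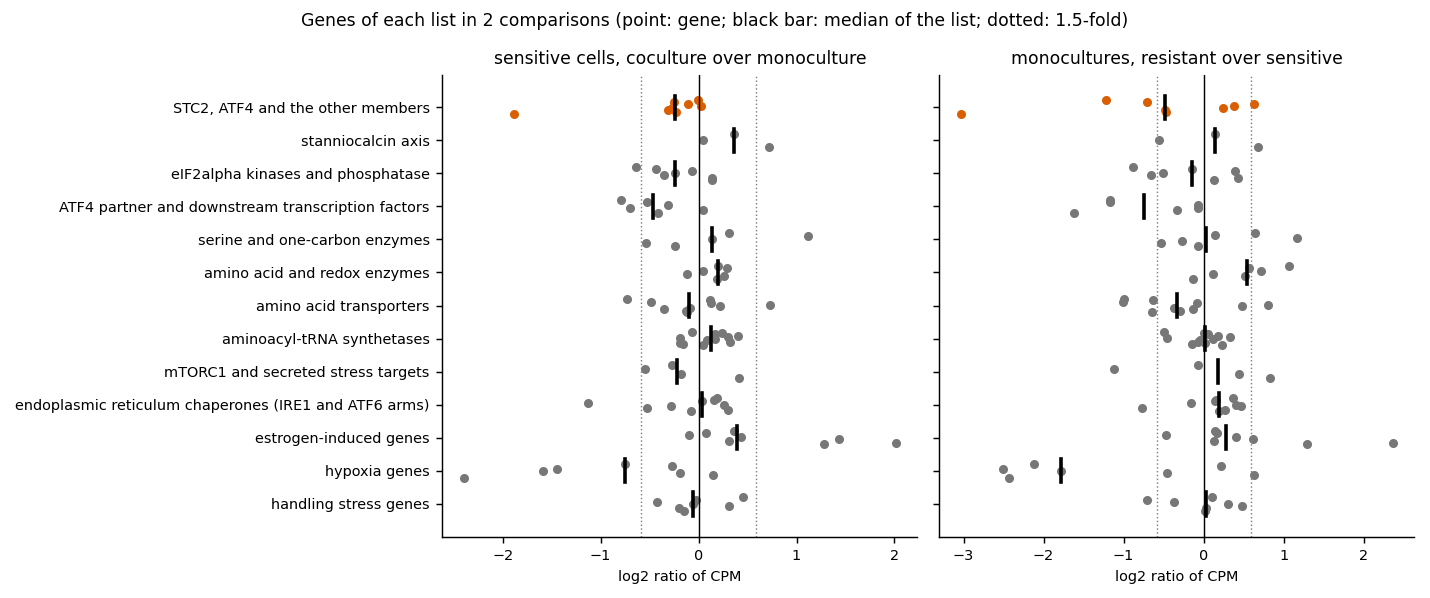
Log2 ratio of CPM (horizontal axis) of each gene with at least 50 UMIs in 13 lists, for coculture over monoculture in sensitive cells (left) and resistant over sensitive monoculture (right); black bars are list medians and dotted lines 1.5-fold. STC2 is the leftmost point of the top row in both panels, and the hypoxia list has the lowest medians, -0.75 and -1.78.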

How the data were processed

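Spheroids of the CAMA-1 line were profiled by droplet single-cell RNA sequencing (10x Genomics 3′ kit, version 3), with 1 library per composition. The authors aligned reads with Cell Ranger 3.0.2 to GRCh37, and the deposited tables hold UMI counts per gene and barcode (8643, 20227 and 11502 barcodes). Per the methods, cells were filtered on genes, UMIs and mitochondrial percent (under 30%), predicted doublets were removed with scrublet, and cells with at least 2 reporter UMIs were kept. In the deposited counts, 2015, 932, 2360 and 4111 of the annotated cells of the 4 populations (sensitive monoculture, sensitive coculture, resistant coculture, resistant monoculture) had fewer than 2. Population, phase, cluster and mitochondrial percent were taken from the deposited annotation of 19237 cells, and 12 further columns were not used. No doublet caller was run here.

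Counts were summed per population with Python 3.11.15, numpy 2.4.6 and scipy 1.17.1. CPM used all genes with a symbol. Log2 ratios had no pseudocount (a count of 0 was set to 3 counts), needed 50 UMIs over both populations, and carried Clopper-Pearson intervals. No test across samples was possible. TMM factors came from edgeR 4.0.16. Likeness used log2(CPM + 1), and ranked genes averaging 20 CPM or more; members below that were given r without a rank. Scripts were tested on simulated data.

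The members, the lists and the mitochondrial bands were chosen with earlier results of these data known. Text names all members, from every list the 3 genes whose coculture ratio was largest in sensitive cells, and the 8 genes most and 4 least like STC2. Genes of cluster 8 named outside this rule are marked as such, and the basal markers KRT14 and KRT5 are also named outside it. Intervals cover counting error only, since cells of 1 library are not replicates.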

Additional observations from a re-analysis of the deposited data

Results flagged for a closer look

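Coculture went with ratios of opposite sign in the lineages for 3 members, counting only ratios whose intervals excluded 0. The log2 ratio of coculture over monoculture was -1.89 in sensitive and 0.70 in resistant cells for STC2, -0.23 and 0.056 for ATF4, and -0.31 and 0.25 for DDIT3. Each counting interval excluded 0, but each lineage had 1 library per condition, so the difference between lineages was not tested. CHAC1 (-0.11 in sensitive and 0.08 in resistant cells) and PHGDH (-0.01 and 0.14) also had opposite signs. The share of all genes with opposite signs was not counted, so the number of members is a description. Over all genes the median ratio was -0.06 in sensitive and 0.04 in resistant cells, so the ATF4 ratio in resistant cells lay near that median. Some signs turned in parts of the cells, mostly with counting intervals that included 0. For ATF4 the ratio in resistant cells was -0.016 under TMM factors, -0.05 at 25 to 30% mitochondrial, -0.0066 in G2M, and -0.02 and -0.03 in clusters 5 and 10, and in sensitive cells it was 0.10 in S and 0.11 in cluster 3. For DDIT3 it was 0.15 at 20 to 25% mitochondrial and 0.54 (0.04 to 1.01) within cluster 4 in sensitive cells, and -0.06 in cluster 10 in resistant cells. Among these turned values only ATF4 in cluster 3 (0.0043 to 0.22) and DDIT3 in cluster 4 had intervals that excluded 0. The TMM value carried no interval.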

How the results depend on the processing

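The STC2 ratio kept its sign and stayed past 1.5-fold under all 14 alternatives for coculture in sensitive cells (-2.16 to -1.16) and all 13 between monocultures (-3.13 to -2.12). In resistant cells it kept its sign in all 12 and 1.5-fold in 11 (0.50 to 0.78). Within coculture, where the main value was below 1.5-fold, it kept its sign in 12 of 13. The median ratio of the other 7 members stayed below 1.5-fold under every alternative run.

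Some values lay outside the counting interval of the main value. For STC2 in sensitive cells, coculture over monoculture, the ratio was -1.69 in G1 cells alone, -1.94 in cells with at least 2 reporter UMIs, -1.63 in cells under 15% mitochondrial, -1.83 as the mean CPM per cell and -1.68 with a pseudocount of 10 CPM. Between monocultures it was -2.93 in G1 cells, -3.13 with 2 reporter UMIs, -3.09 without the 10% of cells with the most UMIs, -2.12 under 15% mitochondrial, -2.92 with TMM factors, -3.11 with mitochondrial genes left out of totals, and -2.97 and -2.53 with pseudocounts of 1 and 10 CPM. Within coculture it was -0.53 in G1 cells, 0.16 under 15% mitochondrial, -0.51 as the mean per cell and -0.35 with a pseudocount of 10 CPM. In resistant cells it was 0.65 under 15% mitochondrial, 0.63 with TMM factors and 0.50 with a pseudocount of 10 CPM. The cause of these shifts was not tested. The mitochondrial bands were chosen after seeing the data. At 15 to 20, 20 to 25 and 25 to 30% the STC2 ratio was -2.16, -1.57 and -1.16 for coculture in sensitive cells, -3.13, -2.93 and -2.90 between monocultures and -0.22, -0.57 and -1.02 within coculture, and it was 0.78 at 20 to 25% in resistant cells. Under 15% without cluster 12 it was -1.68 for coculture in sensitive cells and -2.18 between monocultures.

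The main median of the other members is the middle gene's own ratio, ATF4, or DDIT3 within coculture. Values are set against that gene's counting interval, which is not an interval over genes. For the median of the other members, coculture in sensitive cells gave -0.14 with 2 reporter UMIs, -0.29 without the top 10% of cells, -0.17 under 15% mitochondrial, -0.28 with mitochondrial genes left out and -0.11 with a pseudocount of 10 CPM. Between monocultures it was -0.53 in G1 cells, -0.23 with 2 reporter UMIs, -0.54 without the top 10% of cells, -0.29 under 15% mitochondrial, -0.53 as the mean per cell, -0.36 with TMM factors, -0.55 with mitochondrial genes left out and -0.27 with a pseudocount of 10 CPM. Within coculture it was -0.19 with no UMI minimum. In resistant cells it was 0.020 in G1 cells, 0.0099 with 2 reporter UMIs, 0.0088 under 15% mitochondrial and -0.016 with TMM factors. No paired analysis was possible because each composition had 1 library. PSAT1 and VLDLR had at most 3 and 25 UMIs in a population, and the cause of these low counts was not tested.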
